A study of Mus musculus with 20 samples.

Results

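The 85 table rows described here are the subunits of the mitochondrial respiratory chain and ATP synthase that are encoded in the nucleus, measured in mouse liver before and after removal of 70% of the organ and in hepatocyte organoids. They were chosen by name only: a row was kept where its Ensembl identifier maps to a protein-coding symbol beginning Nduf followed by a, b, c, s or v and a digit, to Sdha, Sdhb, Sdhc or Sdhd, or to a symbol beginning Uqcr, Cox4 to Cox8 or Atp5. This gave 85 of 54532 rows under 84 symbols, of which 37 belong to complex I, 4 to complex II, 8 to complex III, 18 to complex IV and 18 to complex V. The names stand for the gene family and not for proven membership. Ndufa4, for example, is kept under complex I by its name although its product is now assigned to complex IV, and Cox7a2l encodes a supercomplex assembly factor related to a subunit of complex IV. A further 12 rows with matching names were left out because they are not protein-coding, 11 of them processed pseudogenes and 1 a long non-coding RNA.

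In the inner mitochondrial membrane, complex I passes electrons from NADH and complex II passes electrons from succinate to ubiquinone. Complex III then passes them to cytochrome c and complex IV to oxygen, and complex V (ATP synthase) uses the proton gradient that complexes I, III and IV build to make ATP. Complexes I, III, IV and V combine subunits made from nuclear genes with a few made from mitochondrial DNA, whereas complex II, which is also an enzyme of the tricarboxylic acid cycle, is wholly nuclear. Hepatocytes are rich in mitochondria and draw on this machinery for gluconeogenesis, urea synthesis and regrowth.

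The series holds 20 RNA-seq libraries of total RNA from C57BL/6 mice, 2 in each of 10 groups. One group is undamaged liver, and 8 groups are liver at 6, 12, 24, 48 and 72 h and at 7, 14 and 21 d after 70% partial hepatectomy (PHx), an operation after which the remaining lobes grow back. The last group, Hep-Org, is organoids grown in Matrigel from isolated hepatocytes and passaged, with no PHx. The labels name liver as the tissue of all 18 liver libraries and primary hepatocyte as the cell type of both undamaged libraries and of replicate 1 at each PHx time, with no cell type for replicate 2. They give no treatment beyond the operation and no age. Replicate 2 of each PHx time came in a second submission. Whether the 2 libraries of a group stem from different mice or organoid cultures is not stated in the labels, and the p-values then reflect library-to-library spread, which may be technical.

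Levels were deposited as FPKM, that is fragments per kilobase of transcript per 1000000 mapped fragments, and may be compared between genes of a library per length. The values are not set by the mapped reads alone: the reads recovered for a library were 0.478 (Hep-Org replicate 2) to 1.94 times (undamaged replicate 2) the total that its FPKM steps imply, while the median of the tested genes was 2.52 to 2.93 FPKM in every library. The deposited values thus carry a further scaling between libraries, which is not described in the sources used here. Differences are on the log2(FPKM + 1) scale, which understates the change of low genes, and each is given with its standard error (SE). A gene was called at a Benjamini-Hochberg adjusted p under 0.05 in limma, fitted and adjusted over all 13162 genes that reached 1 FPKM in at least 2 libraries. Of the members, 79 reached it.

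Several libraries stood apart before any member was considered. Depth recovered from the steps in the values was 13.65 to 41.39 M reads (M, 1000000), and summed FPKM ran from 167676 in Hep-Org replicate 2 to 988797 in undamaged replicate 2, so scaling is open to choice and is given beside each result it changes. The 13 mRNAs encoded in mitochondrial DNA made up 492700 of 951765 FPKM in 6 h replicate 2 and 11860 of 167676 in Hep-Org replicate 2. Scaling to the same sum is thus set in part by these few mRNAs. Undamaged replicate 2 held 20930 FPKM of Saa1, an acute-phase gene, against 19.92 in undamaged replicate 1. Xist reached 25.27 FPKM in Hep-Org replicate 2 and 13.6 to 23.7 FPKM in both replicates at 48 h, 72 h and 7 d and was near 0 elsewhere, so expression of this gene, which marks female cells, went with part of the time course and differed between the organoid libraries. Ddx3y, a Y-chromosome gene, mirrored it, at 9.901 and 0.007555 FPKM in Hep-Org and 0 at 48 h, 72 h and 7 d. The 2 Hep-Org libraries thus carried markers of opposite sexes, so the spread between them need not be technical alone. None of the 12 hepatocyte markers was at 0 in both libraries of a group, and their summed level was 28060 to 88530 FPKM in the liver libraries. Blood-cell markers were also present in liver, and their levels are given beside the results they move with.

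The promoters of 4 of the 5 members that were lower at 6 h (below) are shown here, together with those of Sdhb and Uqcr11, because the first 4 moved together and the last 2 carry a motif of nuclear respiratory factor 1 (NRF1), an activator of many genes of this family. Each runs 5′ to 3′ on the gene's strand from 250 bases before to 50 bases after the transcript start in RefSeq (GRCm38.p6). Capitals mark a motif found on either strand, and sequences all in lower case hold none of the 4 motifs searched. Uqcrc2, the other member lower at 6 h, is named only. The windows are chr13:74350191-74350490 (minus strand) for Sdha, chr9:50603800-50604099 (minus) for Sdhd, chr9:57520982-57521281 (plus) for Cox5a, chr3:32736813-32737112 (plus) for Ndufb5, chr4:140961021-140961320 (plus) for Sdhb and chr10:80406772-80407071 (minus) for Uqcr11.
Sdha: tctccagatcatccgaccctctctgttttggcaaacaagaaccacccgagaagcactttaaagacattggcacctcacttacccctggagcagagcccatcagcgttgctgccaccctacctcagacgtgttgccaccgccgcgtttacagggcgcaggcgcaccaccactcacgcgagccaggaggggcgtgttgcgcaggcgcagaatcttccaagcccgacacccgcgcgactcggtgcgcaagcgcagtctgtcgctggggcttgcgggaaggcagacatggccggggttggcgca
Sdhd: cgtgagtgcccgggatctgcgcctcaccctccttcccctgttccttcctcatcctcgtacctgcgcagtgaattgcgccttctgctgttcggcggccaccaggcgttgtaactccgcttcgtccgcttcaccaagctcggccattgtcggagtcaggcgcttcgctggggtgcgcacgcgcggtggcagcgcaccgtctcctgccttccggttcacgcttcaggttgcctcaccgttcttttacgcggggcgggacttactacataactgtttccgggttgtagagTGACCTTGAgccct
Cox5a: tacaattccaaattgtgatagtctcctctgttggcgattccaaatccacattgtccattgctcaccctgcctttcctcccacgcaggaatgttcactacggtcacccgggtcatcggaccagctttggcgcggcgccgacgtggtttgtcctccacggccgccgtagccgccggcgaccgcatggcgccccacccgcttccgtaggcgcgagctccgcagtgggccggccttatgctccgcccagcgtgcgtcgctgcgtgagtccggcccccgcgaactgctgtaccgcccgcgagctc
Ndufb5: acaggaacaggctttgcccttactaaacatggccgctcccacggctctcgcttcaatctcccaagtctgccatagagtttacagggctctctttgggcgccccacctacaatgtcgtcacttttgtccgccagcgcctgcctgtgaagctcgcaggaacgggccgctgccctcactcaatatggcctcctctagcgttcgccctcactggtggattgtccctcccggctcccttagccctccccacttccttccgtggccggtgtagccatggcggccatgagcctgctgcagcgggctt
Sdhb: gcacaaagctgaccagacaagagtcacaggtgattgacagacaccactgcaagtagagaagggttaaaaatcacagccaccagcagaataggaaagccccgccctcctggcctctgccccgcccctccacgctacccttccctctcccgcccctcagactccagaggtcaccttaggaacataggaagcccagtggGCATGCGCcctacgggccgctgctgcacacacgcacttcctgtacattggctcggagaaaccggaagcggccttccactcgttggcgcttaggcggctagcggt
Uqcr11: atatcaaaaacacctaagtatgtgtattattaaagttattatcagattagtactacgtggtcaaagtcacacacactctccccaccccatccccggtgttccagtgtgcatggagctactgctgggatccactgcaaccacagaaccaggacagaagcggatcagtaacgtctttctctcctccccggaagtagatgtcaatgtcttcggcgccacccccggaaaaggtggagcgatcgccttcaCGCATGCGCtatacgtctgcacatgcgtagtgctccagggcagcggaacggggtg

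A promoter entry was found for 66 of the member symbols and for 27025 symbols in all, 16514 of them protein-coding. Both strands were searched. The long NRF1 form GCGCATGCG stood in 12.1% of the members' windows (8 of 66: Atp5g2, Atp5k, Atp5l, Cox6a1, Ndufa11, Ndufa8, Uqcr11 and Uqcrc1), in 1.95% of all windows and in 2.74% of those of protein-coding genes. The shorter form GCATGCGC, which overlaps it, stood in 15.2% of members, adding Ndufa6 and Sdhb, against 3.05% and 4.11%. The YY1-type motif AAGATGGCG stood in 10.6% of members (Atp5j, Atp5j2, Ndufa9, Ndufc1, Ndufs4, Ndufs6 and Ndufs7), against 1.64% and 2.25%. The estrogen-related receptor motif TCAAGGTCA stood in Atp5g3 and Sdhd alone, 3.03% of members against 0.466% and 0.388%. Of the promoters printed, Sdhd carries this last motif as its reverse complement, Uqcr11 the long and Sdhb the short NRF1 form. These are counts of letters in a window and are not evidence of a bound factor.

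The summed level of all members was 5239 FPKM in the median library and ran from 2341 to 8815. Complex I took a median of 31.3% of it, complex II 4.99%, complex III 14.1%, complex IV 28.3% and complex V 21.9%. The highest member by mean FPKM over the 20 libraries was Ndufa4 in complex I (152.5), Sdhd in complex II (99.46), Uqcr11 in complex III (125.9), Cox6a1 in complex IV (367.6) and Atp5a1 in complex V (170.9). The lowest and the highest summed level fell within the first 12 h. At 6 h the sum was 2341 FPKM in replicate 1 and 7853 in replicate 2, and at 12 h it was 3824 and 8815. Undamaged liver gave 5473 and 6035 FPKM, close together and inside the range of the early libraries. The organoids gave 2814 and 2897, below every liver library except 6 h replicate 1.

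**Figure D1:**
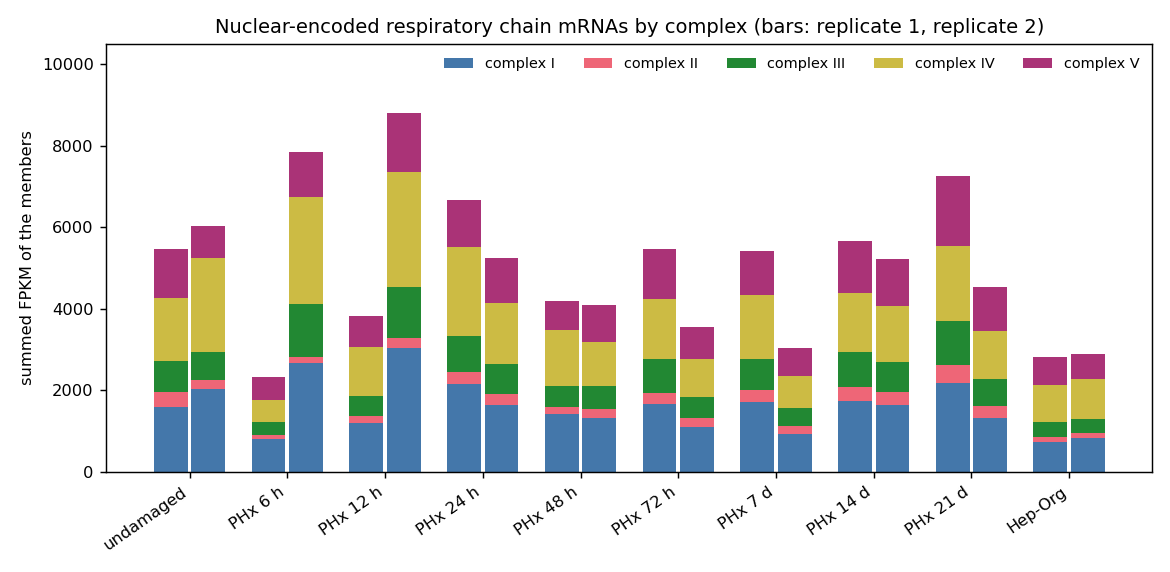
Summed FPKM of the members of each complex in each of the 20 libraries, by group. The pairs at 6 h (2341 and 7853 FPKM for all members) and 12 h (3824 and 8815) lie far apart, whereas the Hep-Org pair (2814 and 2897) lies close together and low.

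At 6 h after PHx, 5 members were lower than in undamaged liver and none was higher. They were both a catalytic and an anchor subunit of complex II (Sdha and Sdhd), a core protein of complex III (Uqcrc2), a matrix-side subunit of complex IV (Cox5a) and a supernumerary subunit of complex I (Ndufb5). The 74 other members tested, all 17 of complex V among them, did not pass. The 5 are 6.329% of the 79 tested, fewer than the 10.2% of all genes called lower, so the family was not called at 6 h more often than genes at large (18.8% of all genes were called in either direction).

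Uqcrc2 stood at 70.87 and 44.72 FPKM in undamaged liver and at 16.27 and 17.04 at 6 h. The groups did not overlap, and the log2 difference was −1.70 (SE 0.35, limma adjusted p = 0.00698, n = 2 a group), 3.25 times lower. Sdhd, a membrane anchor of complex II, stood at 141.2 and 103.4 FPKM in undamaged liver and at 38.94 and 40.87 at 6 h (−1.58, SE 0.33, adjusted p = 0.00747). Sdha, the flavoprotein that oxidises succinate, was at 118.9 and 51.56 FPKM against 22.59 and 28.22. Its undamaged pair differed more than its 6 h pair, but both 6 h values lay lower (−1.60, SE 0.37, adjusted p = 0.0118). Cox5a went from 35.43 and 24.93 to 9.209 and 12.14 FPKM (−1.41, SE 0.33, adjusted p = 0.0115), and Ndufb5 from 12.72 and 23.71 to 7.367 and 8.247 FPKM (−1.07, SE 0.29, adjusted p = 0.0223). For each of the 5, both 6 h values lay below both undamaged values. As the 5 were picked from these same values for being lower, this adds no support, and the share over all genes was not counted.

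The remaining complex II subunits did not pass at 6 h. Sdhb, the iron-sulphur subunit, was at 57.71 and 36.82 FPKM in undamaged liver and at 26.2 and 68.16 at 6 h, so the groups overlapped (log2 difference −0.12, adjusted p = 0.890). Sdhc, the other anchor, was at 38.37 and 29.07 against 12.6 and 28.15 FPKM (−0.79, adjusted p = 0.157). The core subunits elsewhere overlapped in the same way. Ndufv1, which binds NADH, was at 43.38 and 24.86 FPKM in undamaged liver and at 23.98 and 36.67 at 6 h (−0.14, adjusted p = 0.847). Uqcrfs1, the Rieske iron-sulphur protein, was at 106.8 and 55.82 against 51.85 and 133.5 FPKM (0.11, adjusted p = 0.918). Among complex V subunits, Atp5b, the catalytic beta subunit, was at 248.5 and 117.2 FPKM against 75.9 and 104.2 (−0.93, adjusted p = 0.143). Atp5a1, the alpha subunit, was at 274.3 and 117.4 FPKM against 102.1 and 122.5 (−0.68, adjusted p = 0.295).

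Over the 79 members the median difference at 6 h was −0.24 (55 negative), beside 0.0079 over all genes, and the complex II median was −1.18. Without 6 h replicate 1 the count of members called was 2, without undamaged replicate 1 it was 3 and without 6 h replicate 2 it was 13. Uqcrc2 and Sdhd were called with any single library left out. Cox5a and Sdha were not called without undamaged replicate 1 or 6 h replicate 1, and Ndufb5 was not called without undamaged replicate 2 or 6 h replicate 1. With all libraries scaled to the same summed FPKM, where 3.3% of all genes were called lower, none of the 5 was called (Uqcrc2 −1.61, adjusted p = 0.107, Sdhd −1.49, 0.0812). Erythroid markers moved with the 6 h and 12 h libraries: 4 of the 5 tested rose at 6 h, and their sum was 7089 and 581.1 FPKM at 6 h and 6438 and 136.5 at 12 h, against at most 384.8 elsewhere. Of the stellate and mesenchymal markers, 5 of 9 rose at 6 h (Col1a1, Col3a1, Dcn, Pdgfrb and Acta2), with sums of 29.25 and 35.71 FPKM against 3.065 and 14.54 in undamaged liver. Of the hepatocyte markers, Apob and Cps1 fell and Tat rose, and the sum of all 12 was 28060 and 40260 FPKM at 6 h against 70660 and 88530. Of the cholangiocyte markers 2 of 6 rose (Krt19 and Epcam), as did 1 of 2 lymphocyte markers tested (Cd79a). No Kupffer cell or endothelial marker was called, but the undamaged pair lay far apart in the Kupffer cell sum (30.27 and 752.4 FPKM) and in the neutrophil sum (0.6547 and 120.9). Neutrophil markers summed to 826.4 and 112.9 FPKM at 6 h and to 375.2 and 55.19 at 12 h, with 1 of 7 called at 6 h, and 1 cholangiocyte marker was at 0 in both 6 h libraries. The part of these cell types in the result was not tested. In RNA pooled from many cells, fewer cells of a type and less RNA per cell cannot be told apart. Among the libraries of this comparison, 6 h replicate 2 alone has no cell type in its labels, and the others are labelled primary hepatocyte.

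Across the 8 PHx times, with undamaged liver not compared, 4 members changed in the moderated F test: Uqcrc2 (adjusted p = 0.0168), Sdhd (0.0301), Cox5a (0.0310) and Sdha (0.0368). They are 5.063% of the members tested, beside 15% of all genes. All 4 had their lowest mean at 6 h. Uqcrc2, Cox5a and Sdha had their highest mean at 21 d, with a span from trough to peak of 2.16, 1.78 and 1.98 on the log2 scale, and Sdhd had it at 14 d (1.72). Atp5f1 (adjusted p = 0.0804) and Ndufb5 (0.0845) came next and did not pass. The count fell to 0 without either 6 h library, where Uqcrc2 also lost its call, to 1 with a replicate block, and rose to 6 without undamaged replicate 1.

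The course of the 4 members can be followed library by library. Uqcrc2 was at 27.36 FPKM in both 12 h libraries, at 40.42 and 46.01 at 24 h, at 22.77 and 48 at 48 h, at 44.82 and 48.27 at 72 h, at 54.94 and 41.89 at 7 d, at 69.66 and 50.18 at 14 d and at 95.5 and 63.15 at 21 d. Its level was thus lowest at 6 h and 12 h, apart from 1 of the 48 h libraries, and its 24 h values lay near or below the lower undamaged library. Sdhd was at 57.56 and 104.5 FPKM at 12 h, at 127.2 and 119.7 at 24 h, at 85.11 and 103.7 at 48 h, at 125.4 and 98.93 at 72 h, at 122.7 and 89.88 at 7 d, at 129.6 and 137.1 at 14 d and at 155.1 and 110.2 at 21 d. The 24 h Sdhd values lay between the undamaged values of 141.2 and 103.4, and 1 of the 12 h libraries had also reached that range.

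Sdha was at 35.28 and 48.82 FPKM at 12 h, at 63.26 and 57.65 at 24 h, at 38.66 and 53.41 at 48 h, at 50.5 and 46.05 at 72 h, at 63.6 and 47.74 at 7 d, at 84.68 and 85.09 at 14 d and at 128.8 and 81.71 at 21 d. It exceeded the lower undamaged library (51.56) in both libraries at 24 h, 14 d and 21 d. Cox5a was at 21.93 and 26.43 FPKM at 12 h, at 24.31 and 33.77 at 24 h, at 16.52 and 21.96 at 48 h, at 32.28 and 19.78 at 72 h, at 28.53 and 20 at 7 d, at 32.95 and 39.09 at 14 d and at 48.66 and 30.92 at 21 d. The pairs at 12 h, 24 h, 72 h and 7 d each had 1 value below and 1 above the lower undamaged library (24.93), and both 48 h values lay below it.

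**Figure D2:**
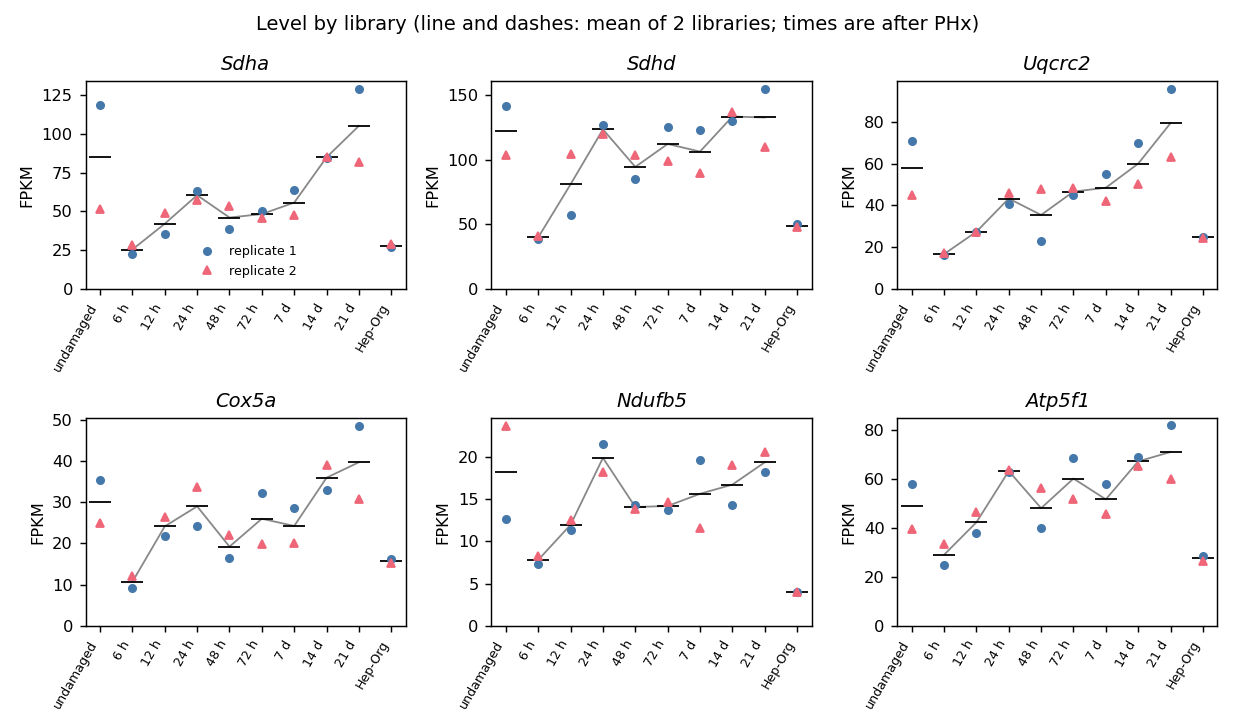
FPKM in each library of undamaged liver, of the 8 PHx times and of Hep-Org. The members shown are Sdha, Sdhd, Uqcrc2 and Cox5a, called in the time course, and Ndufb5 and Atp5f1, which were not. The 6 h points of Uqcrc2 (16.27 and 17.04 FPKM) and Sdhd (38.94 and 40.87) coincide and lie below every undamaged point.

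At every other time no member was called against undamaged liver. After 12 h, 4 members were below an unadjusted p of 0.05 and none passed adjustment, beside 7.02% of all genes called. The largest was Uqcrc2 again (−1.02, adjusted p = 0.104), and leaving out undamaged replicate 2, or the second library of 12 h, gave 1 call. At 24 h the background was 0.258% and 2 members were below the unadjusted threshold, led by Ndufb2 (0.76, adjusted p = 0.291). At 48 h the background was 0.707% (2 members unadjusted; Ndufb8 −0.97, adjusted p = 0.320). At 72 h it was 4.23% (3 unadjusted; Cox6b2 1.04, adjusted p = 0.162). At 7 d it was 0.623% with no member below the unadjusted threshold and Ndufb8 first (−0.66, adjusted p = 0.536). At 14 d and 21 d, 0% of all genes were called, and Ndufv2 (0.73, adjusted p = 0.444) and Ndufs1 (0.84, adjusted p = 0.403) led with 1 and 3 members unadjusted. The count-based voom test on recovered reads, chosen after the data were seen, also called no member at these times.

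The spread between the 2 libraries of a group limited what could be called. At 6 h, 75 of the 79 members were higher in replicate 2 than in replicate 1, by a median of 1.28 on the log2 scale, whereas the median over all genes was 0. At 12 h the same held for 74 members (median 0.93). The sign was the opposite at 7 d (1 member higher in replicate 2, median −0.72), 72 h (6 members, −0.61) and 21 d (5 members, −0.62), and the undamaged pair differed by a median of −0.06. Members therefore moved together between libraries of 1 group, in either direction.

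Short members differed most. At 6 h the 18 members with under 1000 bases of exon differed between the libraries by a median of 2.12, and the 29 with 2000 bases or more by 0.59, and the correlation with log2 exon length over the 79 members was −0.52. The points of that correlation share the same 2 libraries. At 12 h the medians were 1.35 and 0.63 (correlation −0.49). Uqcr11, a small supernumerary subunit of complex III, showed the widest spread, with 25.14 and 537.9 FPKM at 6 h and 62.17 and 406.9 at 12 h, against 134 and 196.1 in undamaged liver. Cox6a1, the general form of subunit 6a, was at 94.6 and 655.8 FPKM at 6 h, and Cox8a, the general form of subunit 8, at 55.37 and 510.2. In each of these 3 the first library lay below both undamaged values and the second lay inside or above their range, so no direction at 6 h can be given.

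The members that were called are among the less variable ones. The median SD between replicates was 0.315 for the 5 called at 6 h and 0.52 for the 74 that were not, and their median exon length was 2552 against 1560 bases. By complex the median SD was 0.36 for complex II, 0.42 for V, 0.47 for III, 0.53 for I and 0.62 for IV. Uqcr11 had the highest SD (1.32) and Atp5s the lowest (0.16). A member that did not pass was therefore not shown to be level. Differences between groups also went with length at some times. Against undamaged liver, the correlation with log2 exon length was 0.48 at 14 d and 0.51 at 21 d, but −0.0011 at 6 h. The cause of the length relation was not tested.

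**Figure D3:**
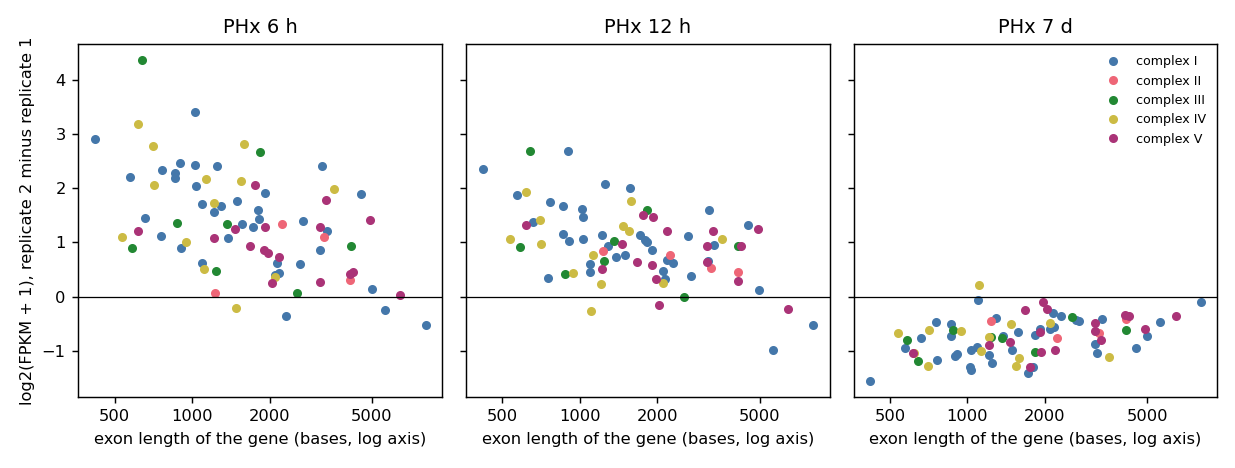
Difference in log2(FPKM + 1) between replicate 2 and replicate 1 against exon length (log axis) for the 79 members at 6 h, 12 h and 7 d, coloured by complex. Points at 6 h lie mostly above 0 and highest for short genes (median 2.12 under 1000 bases, 0.59 at 2000 bases or more), and points at 7 d lie mostly below 0.

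Averaging neighbouring times gave more libraries to a comparison. The 4 libraries of 6 and 12 h were set against the 6 libraries of 7, 14 and 21 d, and 10 members were lower early and none higher. These were Uqcrc2, Sdhd, Sdha and Sdhc, Cox5a, Atp5f1 of the peripheral stalk of complex V, and Ndufa9, Ndufb5, Ndufs1 and Ndufa4l2 under complex I. The 10 are 12.66% of the members tested, below the 16.9% of all genes called lower and the 35.1% called in either direction. Complex II gave 3 of 4 members, complex I 4 of 37, complex III 1 of 8, complex IV 1 of 13 and complex V 1 of 17. The median difference was −0.92 in complex II, −0.29 in III, −0.23 in V, −0.0065 in I and 0.096 in IV, beside −0.10 over all members and 0.02 over all genes. Among members the difference went with log2 exon length (correlation −0.40, beside −0.08 over all genes). Its median was 0.15 in members under 1000 bases and −0.26 in those of 2000 bases or more. The median exon length was 2901 bases in the 10 called and 1495 in the 69 others. The cause of this was not tested.

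Uqcrc2 was at 16.27, 22.2 and 27.36 FPKM (lowest, median, highest) in the early libraries and at 41.89, 59.04 and 95.5 in the late ones. It was the single member whose early values all lay below its late values, beside 12.1% of all genes, and it was 2.75 times lower early (−1.46, SE 0.23, adjusted p = 0.000441). Sdhd was at 38.94, 49.21 and 104.5 FPKM early and 89.88, 126.2 and 155.1 late, overlapping through 12 h replicate 2 (−1.12, SE 0.22, adjusted p = 0.00162). Sdha was at 22.59, 31.75 and 48.82 FPKM early and 47.74, 83.2 and 128.8 late (−1.25, SE 0.24, adjusted p = 0.0017). The overlap of Sdha was small, between 12 h replicate 2 and 7 d replicate 2.

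Cox5a was at 9.209, 17.04 and 26.43 FPKM early and 20, 31.93 and 48.66 late (−0.96, SE 0.21, adjusted p = 0.00374). Atp5f1 was at 24.77, 35.71 and 46.58 early and 45.58, 62.72 and 82.35 late (−0.82, SE 0.19, adjusted p = 0.00547), so its ranges met at a single pair of values. Ndufa9, a supernumerary subunit of complex I, was at 12.82, 18.19 and 26.9 FPKM early and 26.83, 37.44 and 63.97 late (−1.05, SE 0.26, adjusted p = 0.00664). Ndufb5 was at 7.367, 9.829 and 12.54 early and 11.58, 18.68 and 20.58 late (−0.75, SE 0.19, adjusted p = 0.00748). Ndufs1, the largest iron-sulphur core subunit, was at 4.434, 5.918 and 7.724 FPKM early and 7.024, 10.69 and 15.4 late (−0.74, SE 0.21, adjusted p = 0.0139). Sdhc was at 12.6, 24.71 and 31.15 early and 21.98, 38.8 and 52.03 late (−0.71, SE 0.24, adjusted p = 0.0335).

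Ndufa4l2, a paralog of Ndufa4 that was near the filter, was at 0, 0.4171 and 0.7595 FPKM (lowest, median, highest) early and 0.4495, 1.086 and 1.665 late (−0.59, SE 0.20, adjusted p = 0.0374). The catalytic subunits of complex V came close without passing: Atp5a1 −0.74 (adjusted p = 0.0540) and Atp5b −0.68 (0.0680), with Atp5c1, the rotating gamma subunit, at −0.70 (0.0503). The count ran from 8 without 7 d replicate 1 to 17 without 6 h replicate 2. Uqcrc2, Sdhd, Sdha, Cox5a, Atp5f1, Ndufa9 and Ndufb5 were called with any single library left out. Ndufs1 was not called without 6 h replicate 2 or 12 h replicate 2, and Ndufa4l2 and Sdhc each lost their call in 6 of the fits that left out 1 library. With every library scaled to the same sum, 27 members were lower, the 10 among them, beside 22.1% of all genes lower on that scale. On the deposited scale 4 of the 10 differed by an absolute log2 value of 1 or more. Among cell type markers, 4 of 5 erythroid, 4 of 7 neutrophil, 2 of 6 cholangiocyte, 2 of 9 endothelial (Lyve1 and Stab1) and 1 of 2 lymphocyte genes were higher early, and 4 of 9 Kupffer cell genes were lower. Of the stellate genes Acta2 was higher and Lrat lower, and of the hepatocyte genes Tat was higher and Apob and Cps1 lower. Hepatocyte markers summed to 28060 to 46890 FPKM early and 31790 to 79950 late. The part of these cell types in the result was not tested.

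Complex II stood apart in its share of the summed members. It made up 2.11 to 4.29% in the 4 early libraries, 4.39 to 6.18% in the 6 libraries of 24 to 72 h and 5.23 to 6.76% in the 6 late ones, so the early range lay below both later ranges, which overlapped each other. The undamaged pair spanned these ranges with 6.51 and 3.66%, and both organoid libraries gave 3.95%. The share is set by the short members of complexes I and IV as well as by complex II itself. At 6 h, complex IV alone summed to 541.9 FPKM in replicate 1 and 2623 in replicate 2.

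Between the 6 libraries of 24 to 72 h and the 6 of 7 to 21 d no member was called, with 5 below an unadjusted p of 0.05, where 0.243% of all genes were called. Sdha came first, at 38.66, 51.96 and 63.26 FPKM (lowest, median, highest) in the earlier window (−0.61, adjusted p = 0.328), followed by Uqcrc2 (−0.57, adjusted p = 0.341).

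Tissue forms of complex IV subunits separate liver from muscle, heart and brown fat, and liver carried the general forms. Cox4i1 made up 99.2 to 100% of the summed Cox4i1 and Cox4i2 over the 20 libraries, Cox6a1 99.2 to 100% of subunit 6a, Cox6b1 98.4 to 99.98% of subunit 6b and Cox7a2 96.3 to 99.9% of Cox7a1 and Cox7a2. Cox8a made up 92.6 to 100% of subunit 8. The alternative forms Cox4i2 (0 to 0.7841 FPKM) and Cox6a2 (0 to 2.142) did not reach the filter, nor did Cox8b, and Cox7b2 and Cox8c were listed at 0 in all 20 libraries. The second Atp5o row, on chromosome 16 and overlapping the first, was also at 0 throughout. These 6 rows are the members not tested.

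The low value for Cox8a came from 1 library. Cox8b, the heart, muscle and brown fat form, stood at 40.98 FPKM (395 reads) in 6 h replicate 2, at 0.3554 (4 reads) in 12 h replicate 2, at 0.1712 (1 read) in 24 h replicate 2 and at 0 in the other libraries. That 6 h library also held the brown fat genes Ucp1 (21.89 FPKM, 959 reads) and Cidea (10.24, 306 reads), which with the muscle genes of the same list summed to 32.13 FPKM there and to at most 1.207 in the other liver libraries. The muscle markers Ckm, Mb and Myh4 were at 0 in all 20 libraries. Cox7a1, a form shared by muscle and brown fat, was at 1.535 and 4.398 FPKM at 6 h and 0.5061 and 2.152 at 12 h (6 h against undamaged 0.88, adjusted p = 0.218). Its share of Cox7a1 and Cox7a2 was 2.46 to 3.46% at 6 h and as high in Hep-Org (2.02 to 3.71%). Cidea was at 4.05 and 1.114 FPKM in Hep-Org, with Ucp1 at 0 in both libraries. The part of other tissue in 6 h replicate 2 was not tested.

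The 3 genes of the c subunit, which forms the rotor ring of ATP synthase, encode the same mature protein. Atp5g3 made up 50.8 to 72.4% of their sum, Atp5g2 14.2 to 39.9% and Atp5g1 6.2 to 22.5%, so Atp5g3 was the highest in every library. The ranges of the other two overlapped, and in 6 h replicate 2 Atp5g1 (43.36 FPKM, 22.5%) stood above Atp5g2 (37.53, 19.5%). Several members have processed pseudogenes, and how reads were shared between near-identical copies is not given in the sources used here, so their levels are uncertain to that extent.

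In the organoids, transcripts of the respiratory chain were low on the deposited scale. Against the 6 late PHx libraries 36 of the 79 members were lower and none higher, which is 45.57% of members beside 20.8% of all genes called lower and 43.2% called in either direction. All 4 members of complex II were lower, 16 of 37 in complex I, 3 of 8 in III, 4 of 13 in IV and 9 of 17 in V. The median difference over members was −0.91 (75 negative), beside 0.00013 over all genes. This rests on the scale: with libraries scaled to the same summed FPKM, 7 members were higher, beside 53.9% of all genes, and 1 (Ndufb5) lower, since that scaling moves the median of all genes to 0.95 and the members' median to 0.29, which is 0.66 below all genes. Scaled to the same median, 38 members were called.

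Ndufb5 was the 1 member lower on both scales. It stood at 4.032 and 3.956 FPKM in Hep-Org and at 11.58, 18.68 and 20.58 (lowest, median, highest) in the late libraries (−1.85, SE 0.24, adjusted p = 4.0e-05), and at −0.80 (adjusted p = 0.0324) with the same sum. Ndufa4 was at 48.29 and 56.59 FPKM against 111.1, 181.4 and 227.8 (−1.69, SE 0.35, adjusted p = 0.00164). Ndufs3, a core subunit of the ubiquinone-reducing part of complex I, was at 12.56 and 13.45 against 18.55, 32.8 and 38.85 FPKM (−1.17, SE 0.24, adjusted p = 0.00179). With the same sum its log2 difference was 0.0028, which was not called. Ndufv1 was at 14.14 and 17.02 FPKM (−1.20, adjusted p = 0.00974) and Ndufs1 at 4.931 and 4.834 (−0.97, adjusted p = 0.00904).

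In complex II, Sdhb was at 17.82 and 19.01 FPKM in Hep-Org and at 35.92, 73.28 and 107.2 in the late libraries, 3.61 times lower (−1.85, SE 0.36, adjusted p = 0.00108). Sdha was at 26.88 and 28.94 FPKM (−1.46, SE 0.31, adjusted p = 0.00186), Sdhd at 50.39 and 47.7 (−1.30, SE 0.27, adjusted p = 0.00182) and Sdhc at 16.07 and 18.79 (−1.04, adjusted p = 0.0134). For all 4 the organoid pair lay below the 6 late libraries, as it did in 44 of the 79 members, so this does not mark out complex II. The share over all genes was not counted for this comparison. In complex III, Uqcrc2 was at 24.92 and 24.58 FPKM (−1.25, SE 0.29, adjusted p = 0.00351) and Uqcrc1, the other core protein, at 21.82 and 22.33 (−0.91, adjusted p = 0.0414), where the late range began at 21.61.

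In complex IV, Cox7a2, the general form of subunit 7a, was at 35.25 and 40.94 FPKM in Hep-Org and at 69.98, 111.2 and 179.5 late (−1.54, SE 0.32, adjusted p = 0.00182). Cox5a was at 16.3 and 15.15 FPKM (−0.99, adjusted p = 0.00928). Cox4i1 was at 120.1 and 135.4 FPKM, inside the late range, and did not pass (−0.52, adjusted p = 0.443), and Cox8a was at 188.1 in both libraries (0.13, adjusted p = 0.899). In complex V, Atp5f1 was at 28.72 and 26.56 FPKM (−1.15, SE 0.25, adjusted p = 0.00211). The catalytic pair did not pass: Atp5a1 was at 126.7 and 111 FPKM (−0.85, adjusted p = 0.0653) and Atp5b at 138 and 132 (−0.43, adjusted p = 0.334).

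**Figure D4:**
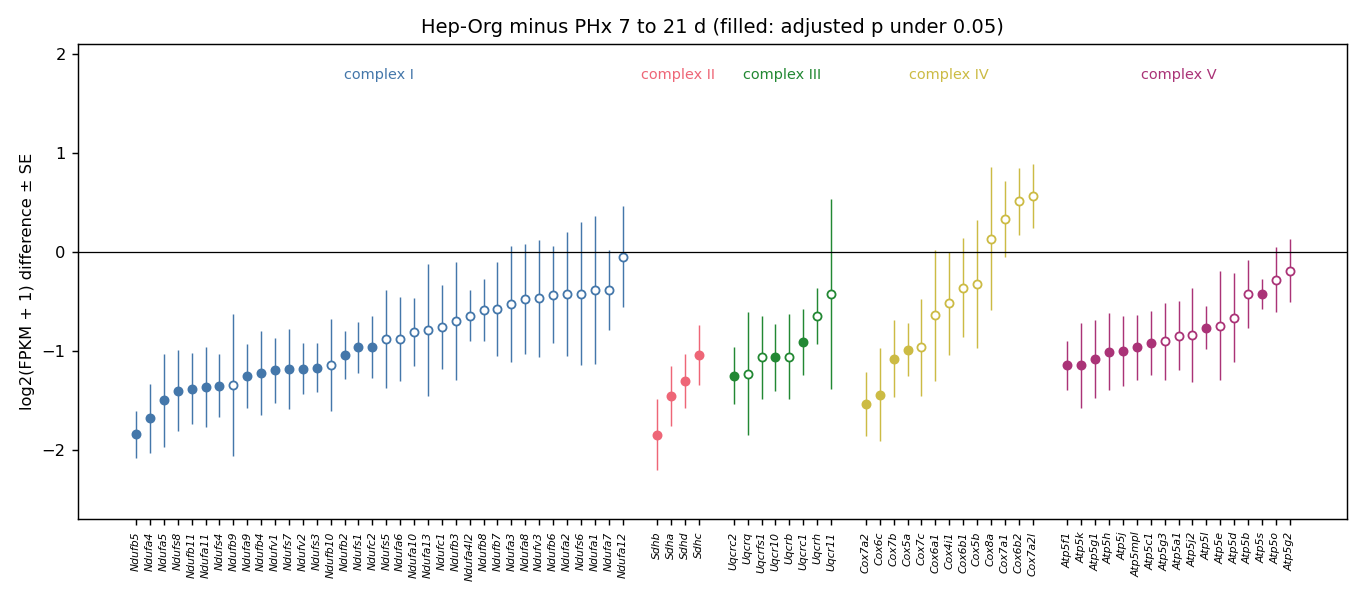
Difference in log2(FPKM + 1) with its SE between Hep-Org and PHx 7 to 21 d for the members named on the horizontal axis, by complex, with filled points at an adjusted p under 0.05. Nearly all points lie below 0 and 36 are filled, with Sdhb and Ndufb5 lowest at −1.85. The median of −0.91 moves to 0.29 when libraries are scaled to the same summed FPKM.

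Against the other liver groups the same libraries gave smaller counts. The 3 comparisons share the Hep-Org libraries. Against undamaged liver 12 members were lower and Cox7a2l higher, that is 15.19% of members lower, beside 17% of all genes lower, 16.6% higher and 33.6% in all. By complex the calls were 7 of 37, 3 of 4, 1 of 8, 2 of 13 and 0 of 17, and Ndufb5 again came first (−1.88, SE 0.29, adjusted p = 0.000273), then Ndufa4 (−1.84, SE 0.43, 0.00488) and Ndufb11 (−1.75, SE 0.44, 0.00823). Against 24 to 72 h, 28 were lower and Cox7a2l higher, beside 20.2% of all genes lower, 21.9% higher and 42.1% in all. With the same sum the direction turned in both: 33 members were higher and none lower against undamaged liver (60.8% of all genes higher), and 17 higher and none lower against 24 to 72 h (60.1%). The members' median was then 0.34 and 0.46 below that of all genes, where it was 0.83 and 0.74 below on the deposited scale.

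On the deposited scale, 10 members were lower than all 3 liver groups, beside 12.4% of all genes, a share near that of the members: Ndufa4, Ndufa5, Ndufb5, Ndufb11, Ndufs3 and Ndufs4 under complex I, Sdha, Sdhb and Sdhd of complex II, and Cox7a2 of complex IV. In 20 of the 79 members both organoid values lay below all 18 liver values, beside 16% of all genes, and in no member did both lie above, beside 14.9% of all genes. Besides Ndufb5, Ndufa4, Ndufs3, Ndufv1, Sdhb and Cox7a2 these include Ndufb11, at 46.96 and 49.84 FPKM in Hep-Org and 74.33, 129.5 and 208.3 (lowest, median, highest) in liver, and Atp5s, at 1.875 and 1.695 against 1.983, 3.148 and 3.718.

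Cox7a2l, the supercomplex assembly factor, was the exception. It stood at 118.7 and 93.82 FPKM in Hep-Org, at 51.71 and 42.7 in undamaged liver, at 33.05, 57.77 and 76.43 at 24 to 72 h and at 49.64, 69.81 and 102.7 late. It was 2.22-fold higher than in undamaged liver (1.15, SE 0.39, adjusted p = 0.0382) and 1.95-fold higher than at 24 to 72 h (0.96, adjusted p = 0.0282), and did not pass against the late libraries (0.57, adjusted p = 0.172), whose 14 d replicate 1 lay between the organoid values. With the same sum it was higher in all 3 (3.08, 2.45 and 1.80). The call against undamaged liver was lost when either undamaged or either Hep-Org library was left out and with a replicate block (adjusted p = 0.0526).

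These counts depend on the 2 organoid libraries. Against the late libraries the count ran from 11 without Hep-Org replicate 1, and 14 without Hep-Org replicate 2, to 44. Against 24 to 72 h it was 8 and 7 without them and up to 34, and against undamaged liver 2 and 5, with 5 also without undamaged replicate 1 and 21 without either 6 h library. Ndufb5, Sdhb, Uqcrc2, Cox7a2, Atp5f1, Ndufa4 and Ndufs3 were called against the late libraries with any single library left out. The cell types differed as well. All 12 hepatocyte markers were lower in Hep-Org than in undamaged liver, with a summed level of 5508 and 1461 FPKM and none at 0. The 6 cholangiocyte markers tested were all higher, and the list summed to 4452 and 2737 FPKM against 5.446 to 335.9 in liver. Of the non-parenchymal lists, 8 of 9 Kupffer cell and 8 of 9 endothelial markers were lower than in the late libraries, with sums of 4.949 and 0.9448 FPKM and of 3.683 and 2.857 FPKM in Hep-Org. With the same sum, 8 of the 12 hepatocyte markers were still called lower and all 6 cholangiocyte markers higher, so the hepatocyte difference held in part. Hepatocyte markers were thus lower but unevenly so in Hep-Org. Hnf4a stayed at 43.48 and 37.86 FPKM and Apob at 113.6 and 120, whereas Cps1 was at 0.103 and 0.1096 and Cyp2e1 at 0 and 0.1911. The part of these cell type differences in the members' levels was not tested.

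The mRNAs encoded in mitochondrial DNA were mostly higher early than late, whereas the few nuclear members called were lower. In Hep-Org the called genes of both sets were mostly lower on the deposited scale. The 13 mitochondrial mRNAs together stood at 62.7 to 64.5 times the summed members at 6 h, 23.1 to 27.5 times at 12 h, 9.37 to 39.4 times at 24 h, 31.2 to 53.1 times at 48 h, 19.2 to 24.7 times at 72 h and 4.81 to 19.2 times at 7 to 21 d, against 13.5 and 31.0 times in undamaged liver and 4.09 to 4.33 times in Hep-Org. Early against late, 11 of the 13 were higher and none lower (median 2.17, and 1.64 with the same sum, where 11 were also called), among them mt-Nd6 (1.76, adjusted p = 0.00776), the only one of these mRNAs on the light strand. Of all genes, 35.1% were called in either direction in this comparison. Of the 79 nuclear members tested, 10 were lower and none higher. That is a smaller share than the 16.9% of all genes called lower, so no fall of the family as a whole was shown. At 6 h against undamaged liver none of the 13 was called (median 1.36, 1 below an unadjusted p of 0.05).

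In Hep-Org, 8 of the 13 were lower than in undamaged liver (median −3.28), 11 lower than at 24 to 72 h (−3.62) and 4 lower than at 7 to 21 d (−1.84). Of all genes, 17%, 20.2% and 20.8% were lower in these comparisons. With the same sum 5 were lower against undamaged liver and 3 against the late libraries.

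**Figure D5:**
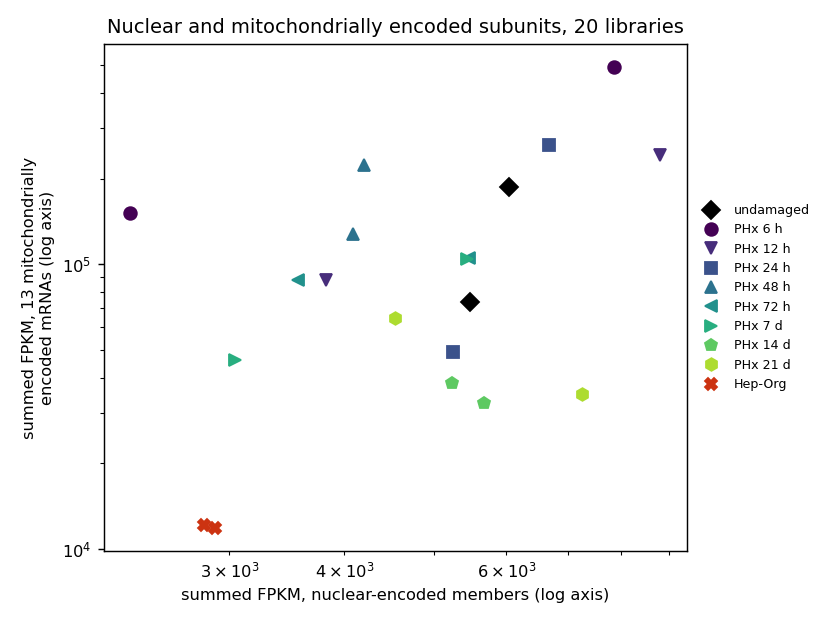
Summed FPKM of the 13 mitochondrial mRNAs against summed FPKM of the nuclear members in each library, with a symbol for each group. The 6 h libraries share a ratio (62.7 to 64.5) although their member sums are 2341 and 7853 FPKM, and the Hep-Org libraries share the lowest (4.09 to 4.33).

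Genes that build or serve the chain were followed as lists, in the early against late comparison (where 18.3% of all genes were higher and 16.9% lower). Of 14 complex I assembly factors, 6 were lower and 1 higher (median −0.34, beside 0.02 over all genes). Nubpl, which delivers iron-sulphur clusters to complex I, was at −0.94, Tmem126b at −0.89 and Foxred1 at 0.82, and with the same sum 9 were lower and none higher. Of 26 assembly factors of complexes II to V, 7 were lower and 1 higher (median 0.02), led by Cox19 (0.85) and including Sdhaf4 (−0.73) and the copper chaperone Sco1 (−0.56). With the same sum 9 were lower and none higher. Of 12 electron carriers and related genes, 2 were lower (Aifm1 −1.01, Coq9 −0.47) and 2 higher (Etfb 0.95, Coq7 0.91), where the same sum left 5 lower and none higher. Of 14 tricarboxylic acid cycle enzymes, 4 were lower (among them Sucla2 −0.92 and Dld −0.75) and 2 higher (among them Fh1, fumarase, 1.30), and with the same sum 5 were lower and none higher.

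Regulators moved in both directions. Pprc1, a coactivator related to PGC-1alpha, was at 6.576 and 4.855 FPKM at 6 h and at 0.9531 and 0.902 at 14 d (early minus late 1.48, adjusted p = 6.23e-05). Gabpb1 (0.42) and Nrf1 (0.36) were also higher and Gabpa (−0.58) lower, which makes 4 of 8 tested, and with the same sum 1 was higher and 1 lower. Ppargc1a, encoding PGC-1alpha, and Ppargc1b were low throughout, at 0.153 to 2.6 and 0.115 to 0.721 FPKM. Tfam, which packages mitochondrial DNA and helps start its transcription, was at 5.215 and 3.349 FPKM at 6 h and at 7.636 to 10.74 late (−0.78, adjusted p = 0.00267). In its list of 10, 2 were lower (Tfam and Polg2, −0.55) and 2 higher (Ssbp1 0.45, Polrmt 0.49), and with the same sum 2 were lower and none higher. Of 8 hypoxia-responsive genes, Adm was higher (1.06) and Pdk1, which restrains entry of pyruvate into the cycle, lower (−1.45).

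In Hep-Org against the late libraries, 9 of 14 complex I assembly factors were lower (Ndufaf6 −1.33, Ecsit −1.31, Tmem126b −1.29), 9 of 26 factors of the other complexes (Surf1 −1.07, Tmem70 −0.73), 6 of 12 carriers (Etfb −2.29, Etfa −2.11, Cyc1 −1.29, Coq9 −1.23), 4 of 10 genes of mitochondrial DNA (Tfam −0.75) and 7 of 14 cycle enzymes (Fh1 −2.22, Sucla2 −1.70, Dld −1.11), with none higher in these 5 lists. With the same sum the counts were 0 lower and 1 higher, 0 and 10, 1 and 2, 0 and 2, and 1 and 3, so the direction held for none of the 5 lists as a whole. Among the regulators, Pprc1 (1.48), Esrra (1.18), Gabpb1 (0.62) and Nrf1 (0.44) were higher and Ppara, which drives fatty acid oxidation in hepatocytes, lower (−3.06), and with the same sum 5 were higher and 1 lower. Of the hypoxia-responsive genes Egln3 (2.19) and the glucose transporter gene Slc2a1 (1.95) were higher and Bnip3 lower (−1.84), and with the same sum 3 were higher and none lower.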

How the data were processed

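The deposited table holds FPKM values per gene, made by the authors. The submitters' processing notes name HISAT2 2.0.5 and the mm10 build. How fragments were counted, on which annotation and with what treatment of reads shared by copies is not given in the sources used here. One column, undamaged replicate 1, was matched to its sample because all others were taken. Symbols, positions and exon lengths came from GENCODE M21 (GRCm38) and promoters from RefSeq.

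Differences were tested with limma 3.58.1 in R 4.3.3 on log2(FPKM + 1) over all 20 libraries with 1 mean per group, moderated with trend and robust settings (10 residual degrees of freedom), among genes at 1 FPKM or more in at least 2 libraries, with Benjamini-Hochberg adjustment. The procedure was tested on simulated data. No interval covers more than the spread between 2 libraries a group.

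One member is counted throughout but its own values are not reported here. The members and lists were chosen with earlier results of these data known. Named were the highest and most variable member of each complex, the member with the largest t per complex and comparison, core subunits, tissue forms, untested members and up to 3 genes per list. Alternatives covered scaling, filter, pseudocount, a replicate block and leaving out each library. The count test (voom) on whole reads recovered from the FPKM steps, where 97.86 to 98.74% of low values came within 0.05 of a whole read, and windows without 48 h, 72 h and 7 d were chosen after seeing the data.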

Additional observations from a re-analysis of the deposited data

How the results depend on the processing

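Over the planned and added alternatives, leave-one-out aside, 113 counts or shares stayed within 1.5 times of the value reported or within its error and 12 did not. Of the named members' differences 268 kept their direction and their side of the threshold, 34 lost the threshold and 10 reversed. The 12 were these, and beyond the smaller number of genes or samples that some of them leave, the cause was not tested. With no filter the time course gave 1, and Hep-Org gave 8 against undamaged liver and 19 against 24 to 72 h. With libraries scaled to the same summed FPKM the counts were 0 at 6 h, 27 for early against late, and 33, 17 and 8 for Hep-Org against undamaged liver, 24 to 72 h and 7 to 21 d. At an absolute log2 difference of 1 or more, early against late gave 4. With the motif searched on the gene's strand alone, 0% of members held the estrogen-related receptor motif. The replicate block gave 1 for the time course, as did the block by submission, and 9, 23 and 30 for Hep-Org. It changed no other count by over 1.5 times. Over 28 pairs of times the correlation of deviations was −0.381 to 0.472, above 0.1 in 4, so replicate numbers did not pair libraries throughout. At 6 h and 12 h, however, replicate 2 was the deeper library (41.03 and 41.39 M reads, against 17.3 and 19.64 M). It also held most members higher at both times (75 and 74 of 79). Whether these early libraries form matched pairs was not tested. Leaving out 1 library gave 0 to 6 members for the time course, 2 to 13 at 6 h, 0 to 1 at 12 h, 8 to 17 for early against late, and 2 to 21, 7 to 34 and 11 to 44 for the Hep-Org comparisons, and 0 throughout for each time from 24 h on against undamaged liver and for 24 to 72 h against late. The same-sum scale reversed 10 named differences: against undamaged liver Sdha 0.45, Uqcrc2 0.75, Cox7a2 0.45, Ndufa4 0.095 and Ndufb11 0.19, against 24 to 72 h Sdhd 0.34, Uqcr10 0.43 and Atp5f1 0.46, and against 7 to 21 d Atp5f1 0.056 and Ndufs3 0.0028. Voom called 4 members in the time course, 5 at 6 h, 12 early against late, and 18, 31 and 39 for Hep-Org. Without 48 h, 72 h and 7 d, the early libraries against 14 and 21 d gave 13, Hep-Org against 24 h gave 25 and Hep-Org against 14 and 21 d gave 39. With 2 libraries a group, differences under about the replicate spread were not detectable.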
